A study of Mus musculus with 8 samples.

Results

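The cytosolic HSP90 and HSP70 chaperone machinery was followed through 10 genes in insulin-specific T cells: HSP90AA1 and HSP90AB1, the HSP90 partner CHORDC1, the HSP70 genes HSPA8, HSPA1A and HSPA1B, the J-proteins DNAJA1 and DNAJB1, the adaptor STIP1 and the exchange factor HSPH1. They are 10 of the 46625 gene names in the count table, found by symbol, and all 10 were among the 14607 genes with enough counts to be tested. The set was chosen by function around CHORDC1, which had been selected on its higher counts in NOD hosts in these same libraries. The host differences of the 10 genes are therefore given as a description, without a test.

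The cells carried the 8F10 T cell receptor, which recognises an insulin peptide. Bone marrow stem cells depleted of T and B cells came from 8F10 donors lacking the endogenous receptor alpha chain (CD45.2) and were given to CD45.1 hosts after irradiation that was not lethal, so the hosts could keep cells of their own. Hosts were NOD mice, which make native insulin, or B16A mice, whose insulin differs from the native form by a residue of its B chain; the labels give NOD/ShiLtJ as the strain of every sample. After 6 weeks the 8F10 cells were sorted by flow cytometry out of inguinal nodes, a site that does not drain the pancreas. Each host had 4 libraries, 1 in each of 4 labelled batches, and the number and age of the animals behind a library were not given in the sources used here. Nor do the labels say that the libraries of a host came from separate animals, so the spread between them may be partly technical.

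HSP90 is an ATP-driven chaperone that completes the folding of client proteins such as kinases and steroid receptors. HSP70 binds unfolded stretches earlier, with J-proteins that deliver clients and start its ATP cycle, and exchange factors that end it. STIP1, also called HOP, holds HSP70 and HSP90 together so that a client can pass from one to the other. Under protein-damaging stress the transcription factor HSF1 raises many of these genes through heat shock elements, short inverted repeats of GAA and TTC in their promoters. In T cells HSP90 is known for keeping the receptor-proximal kinase LCK stable.

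Levels below are CPM, the field's normalised read count, scaled to library sizes adjusted by the TMM method. Total counts ran from 4896593 to 6137666 in the 6 libraries of batches 1 to 3 and were 28301805 (NOD) and 28094237 (B16A) in batch 4. Both batch 4 libraries stood apart, with 19751 and 20723 genes detected against 29729 to 33175 in the others, so each result is given by batch. Marker lists were summed per library and scaled to total counts, in CPM. Markers of CD4 T cells had high sums throughout: their 7 genes summed to 4010 to 8034 in NOD hosts and 4239 to 6405 in B16A hosts. Not every gene of this list was high. With TMM scaling, CD28 reached 9.95 (NOD) and 6.79 CPM (B16A) in batch 4 and no more than 1.98 CPM in any other library. THY1 went the other way, with 233 (NOD) and 236 CPM (B16A) in batch 4 and no less than 766 CPM elsewhere. Markers of B cells (6 genes) summed to 1.59 to 22.9 and 1.46 to 11.8, those of myeloid cells (6) to 1.98 to 43.9 and 3.13 to 29.4, and those of dendritic cells (5) to 7.28 to 56.8 and 3.20 to 39.9 in NOD and B16A hosts. NK cell markers (4) summed to 0.530 to 4.08 and 0.463 to 6.80, and erythroid markers (4) to 0.212 to 6.17 and 0.178 to 4.31. Of the 2 CD8 genes CD8A was at or under 3.56 CPM while CD8B1 ran from 62.6 to 186 CPM, and the stromal and endothelial list (5) summed to 227 to 444, nearly all from PECAM1, which T cells also express. In bulk samples a smaller number of cells of a type and less RNA per cell cannot be told apart.

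The 10 genes covered a wide range of levels once exon length was taken into account. HSP90AB1, the constitutive HSP90, was the most abundant, with a median of 189 CPM per kilobase of exon over the 8 libraries (range 130 to 489). STIP1 (median 41.6, range 33.1 to 89.6), HSPA8, the constitutive HSP70 (33.8, 24.4 to 68.5), and DNAJB1 (31.1, 23.5 to 55.1) followed, and their ranges overlapped. A second overlapping group held DNAJA1 (17.4, 9.23 to 79.9), CHORDC1 (15.8, 8.45 to 31.9) and HSP90AA1, the stress-inducible HSP90 (15.7, 9.89 to 39.9), with HSPH1 below them (6.79, 4.48 to 18.8). The ranges of neighbours in this order overlapped from STIP1 down to HSPH1, so their order is not fixed by these libraries. The inducible HSP70 genes HSPA1A (1.16, 0.763 to 2.10) and HSPA1B (1.03, 0.217 to 1.72) lay lowest, with ranges that overlapped each other and no other member. By these per-length levels the counts of the constitutive forms of HSP90 and HSP70 far exceeded those of the inducible ones. HSP90AB1 exceeded HSP90AA1 by 7.06 to 16.7 times, and HSPA8 exceeded HSPA1A and HSPA1B together by 9.84 to 28.7 times, depending on the library.

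**Figure D1:**
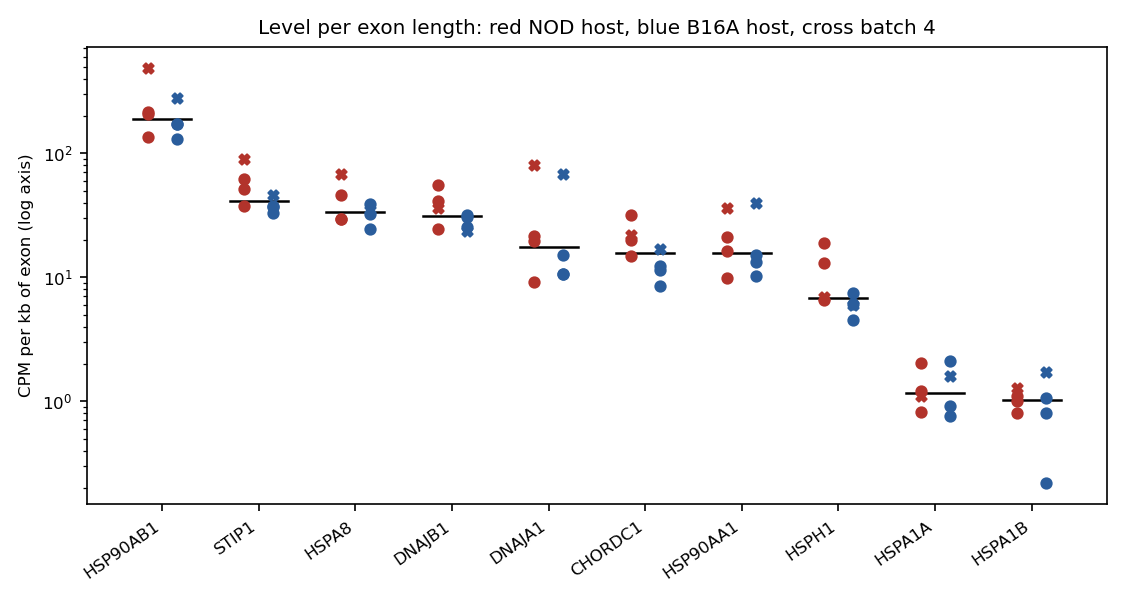
CPM per kilobase of exon (log axis) for each of the 10 genes, 1 marker per library (NOD hosts in red, B16A hosts in blue, circles batches 1 to 3, crosses batch 4; black line, median over the 8 libraries). HSP90AB1 lies highest at a median of 189, and HSPA1A and HSPA1B lie lowest at 1.16 and 1.03.

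Part of this order depends on how reads of near-identical copies were counted, which was not given in the sources used here. Of the 50-base stretches in the annotated transcripts of each gene, as long as the reads, 66.3% for HSPA1A and 62.3% for HSPA1B also occurred in transcripts of another gene, most of them in the other member of the pair. For HSP90AA1 the share was 47.5%, for HSPA8 39.4% and for DNAJA1 20.6%, with pseudogenes leading the list of partners. STIP1 (5.59%), HSP90AB1 (3.44%), CHORDC1 (0.818%), DNAJB1 (0.412%) and HSPH1 (0%) shared few or no such stretches. The levels of the first 5 genes are therefore uncertain, and so are the ratios of constitutive to inducible forms given above. If shared reads were left out of the counts, the larger shares of HSPA1A, HSPA1B and HSP90AA1 would make those ratios too high. DNAJA1 also overlaps the antisense gene SMU1 in an exon; SMU1 counts reached 31.0% of those of DNAJA1 in 1 library, and without strand the reads of the overlap cannot be told apart.

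CHORDC1 stood higher in the NOD library of every batch. It codes for a zinc-binding protein with CHORD domains that binds HSP90, and it lies on chromosome 9 (18292125 to 18317442, plus strand, mm10). Its level in NOD hosts was 149.9, 111, 239 and 163 CPM in batches 1 to 4, and in B16A hosts 85.9, 63.4, 92.9 and 126 CPM. The NOD libraries of batches 1 to 3 lay above all B16A libraries of those batches, and the groups overlapped only through batch 4, where the B16A library exceeded the NOD library of batch 2. Within batches the NOD level was 1.74, 1.75, 2.57 and 1.29 times the B16A level. The fitted log2 fold change, NOD minus B16A host, was 0.85 (standard error, SE, 0.33), from means of 166 ± 53.8 CPM for NOD and 92.1 ± 26.1 CPM for B16A hosts (SD over the 4 libraries). The NOD library of batch 3 gave the highest value of all 8.

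The RefSeq start of CHORDC1 carries a run of 5 perfect heat shock element units, more than were matched in the other 6 of the 10 genes that could be searched. Promoter windows from RefSeq (GRCm38.p6, 250 bases before to 50 after each annotated start) covered 7 of the 10 genes, all but HSP90AA1, HSP90AB1 and HSPA8, with 11 windows in all. They were searched on both strands for 3 alternating units, GAANNTTCNNGAA, whose reverse complement is TTCNNGAANNTTC. CHORDC1 and HSPH1 held it, against 0.662% of 27025 genes with a window. In CHORDC1 3 overlapping matches formed 5 units in a row from position -4 to the bases just after the RefSeq start (chr9:18292260-18292289, plus strand). The gene position given above is from another annotation, GENCODE, where CHORDC1 starts at 18292125, so by it this run lies inside the gene. In HSPH1 1 match lay 16 or 37 bases after the start, depending on which of 2 annotated starts is used (chr5:149636279-149636308, minus strand). HSPA1A (chr17:34972242-34972271) and HSPA1B (chr17:34959324-34959353), both on the minus strand, held the shorter pair GAANNTTC at position -104; GAANNTTC or TTCNNGAA, which also lie inside the longer motif, occurred in 17.0% of all genes. The stretches around the matches of these 4 genes are shown to compare how many units were matched in each. Capitals mark the matched units. Units with a changed base, or with a gap between them, were not searched for, so a gene may hold more units than were matched.
CHORDC1: ccgGAACGTTCGGGAAAATTCCTGAAgcag
HSPH1: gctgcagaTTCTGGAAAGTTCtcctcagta
HSPA1A: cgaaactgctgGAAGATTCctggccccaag
HSPA1B: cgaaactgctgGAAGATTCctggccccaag
The HSPA1A and HSPA1B stretches are the same, and the 250 bases before their starts are identical at 247 positions (98.8%). DNAJA1 held the shorter pair in 1 of its 3 windows, and DNAJB1 and STIP1 held neither motif. A match describes letters in a window; binding was not measured here.

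The HSP90 genes themselves did not share the direction of CHORDC1 in every batch. HSP90AB1 (chromosome 17, 45567775 to 45573271) stood at 617, 403, 646 and 1467 CPM in NOD hosts and at 389, 515, 512 and 844 CPM in B16A hosts, batches 1 to 4. It was higher in the NOD library in batches 1, 3 and 4 and lower in batch 2, and the host groups overlapped. HSP90AA1 (chromosome 12, 110690605 to 110702728) stood at 83.3, 38.9, 64.4 and 141 CPM in NOD hosts and at 58.9, 52.3, 40.1 and 157 CPM in B16A hosts. It was higher in the NOD library in batches 1 and 3 and lower in batches 2 and 4. The fitted log2 fold changes were 0.47 (SE 0.45) for HSP90AB1 and 0.09 (SE 0.54) for HSP90AA1. Both values moved when 1 library of batch 4 was left out, which leaves that batch in 1 host only. Without the NOD library of batch 4 they were -0.05 and -0.35, and without its B16A library 0.76 and 0.73. With batch 4 left out of both hosts they were 0.24 and 0.31. In edgeR with the batch number as a term they were 0.36 and 0.15. The ratio of HSP90AB1 to HSP90AA1 per kilobase was 13.6 in the NOD and 7.06 in the B16A library of batch 4, and 8.64 to 16.7 in batches 1 to 3.

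STIP1, the adaptor between HSP70 and HSP90, was the other gene higher in the NOD library of all 4 batches, but in batch 2 by almost nothing. It lies on chromosome 19 (7020702 to 7039967). Its levels were 108, 78.9, 129.8 and 189 CPM in NOD hosts and 69.9, 77.2, 78.6 and 96.4 CPM in B16A hosts. The B16A libraries of batches 1 to 3 lay close together, and the NOD library of batch 2 lay with them. Within batches 1 to 4 the log2 ratio was 0.63, 0.03, 0.72 and 0.97, and the fitted log2 fold change was 0.65 (SE 0.31). It was 0.37 without the NOD library of batch 4 and 0.50 with batch 4 left out of both hosts. Of the 10 genes, 2 (CHORDC1 and STIP1) were higher in the NOD library of all 4 batches, beside 7.43% of all tested genes. The same 2 had all 3 NOD libraries above all 3 B16A libraries in batches 1 to 3, beside 4.75%. Both counts come from the comparison that was in view when the genes were chosen.

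HSPH1 had the largest host ratios of the 10 genes in batch 3 and the largest fitted difference, but they came from 2 batches. It codes for HSP110, an HSP70 relative that frees ADP from HSP70, and lies on chromosome 5 (149614287 to 149636376). It stood at 95.2, 48.1, 137 and 50.6 CPM in NOD hosts and at 32.6, 54.3, 44.3 and 43.3 CPM in B16A hosts. The NOD libraries of batches 1 and 3 were high, and the other 6 libraries lay between 32.6 and 54.3 CPM. The NOD level was 2.91 and 3.07 times the B16A level in batches 1 and 3, and 0.885 and 1.17 times in batches 2 and 4. The fitted log2 fold change was 0.92 (SE 0.39), and 0.56 without the NOD library of batch 3.

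HSPA8, the constitutive HSP70 on chromosome 9 (40800984 to 40810087), stood at 197, 128, 128 and 294 CPM in NOD hosts and at 141, 167, 105 and 150.1 CPM in B16A hosts. In batches 1 to 4 its log2 ratio came to 0.49, -0.38, 0.28 and 0.97, the same order of signs as HSP90AB1. The host groups overlapped. The inducible genes HSPA1A (34969190 to 34972156) and HSPA1B (34956436 to 34959238), neighbours on chromosome 17, were counted at 14 to 113 and 4 to 115 reads per library. HSPA1A stood at 2.41, 5.98, 3.60 and 3.27 CPM in NOD hosts and at 2.74, 6.24, 2.27 and 4.74 CPM in B16A hosts. Its 2 highest libraries were both those of batch 2, one of each host. HSPA1B stood at 2.24, 2.80, 3.11 and 3.59 CPM against 0.609, 2.96, 2.27 and 4.82 CPM, and its log2 ratio of 1.60 in batch 1 rested on 13 and 4 reads. The fitted log2 fold changes were 0.41 (SE 0.34) for HSPA8, -0.07 (SE 0.57) for HSPA1A and 0.13 (SE 0.70) for HSPA1B. The value of HSPA8 was 0.083 without the NOD library of batch 4 and 0.14 with batch 4 left out of both hosts. When 1 library was left out, that of HSPA1A ran from -0.37 (without the NOD library of batch 2) to 0.21 (without the B16A library of batch 2), and that of HSPA1B from -0.20 (without the B16A library of batch 1) to 0.61 (without the B16A library of batch 4). The host groups of both inducible genes overlapped.

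The J-proteins followed the same batches. DNAJB1, the inducible J-protein (HSP40) on chromosome 8 (83608193 to 83612653), stood at 133, 78.9, 177 and 116 CPM in NOD hosts and at 97.6, 102, 81.9 and 75.3 CPM in B16A hosts. DNAJA1, a J-protein with a lipid anchor on chromosome 4 (40722150 to 40737149), stood at 184, 79.7, 169.8 and 689 CPM in NOD hosts and at 131, 91.8, 91.7 and 583 CPM in B16A hosts. Both were higher in the NOD library in batches 1, 3 and 4 and lower in batch 2, with log2 ratios of 0.44, -0.37, 1.11 and 0.63 for DNAJB1 and 0.49, -0.20, 0.89 and 0.24 for DNAJA1. The fitted log2 fold changes were 0.50 (SE 0.29) for DNAJB1 and 0.32 (SE 0.84) for DNAJA1, whose batch 4 libraries stood far above the others. That of DNAJB1 was 0.29 without the NOD library of batch 3. That of DNAJA1 was -0.68 without the NOD and 1.46 without the B16A library of batch 4, which leaves batch 4 in 1 host only. With batch 4 left out of both hosts the value of DNAJA1 was 0.47.

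**Figure D2:**
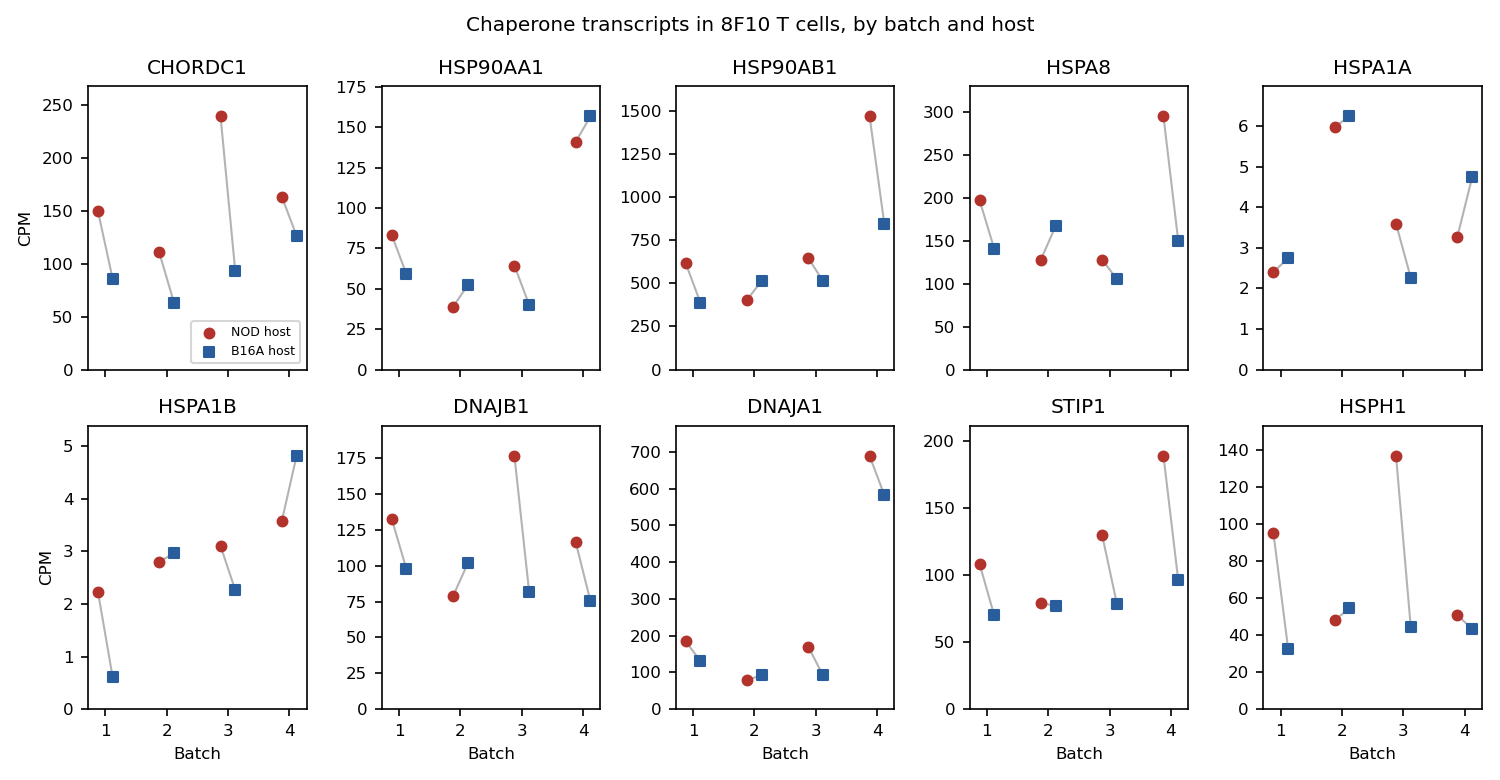
CPM of each of the 10 genes in the 8 libraries by batch (red circles NOD host, blue squares B16A host; a grey line joins the 2 libraries of a batch; each marker is 1 library, so there are no error bars; each panel has its own axis from 0). CHORDC1 is higher in the NOD library of all 4 batches, HSPH1 is high in the NOD libraries of batches 1 and 3 only, and DNAJA1 is high in both batch 4 libraries.

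Read across the set, the host ratio differed from batch to batch. The NOD library was the higher one for 9, 2, 10 and 7 of the 10 genes in batches 1 to 4, and the medians of their log2 ratios were 0.57, -0.19, 0.70 and 0.31. Of all tested genes, 50.0%, 53.4%, 48.0% and 46.4% were higher in the NOD library of batches 1 to 4. Their medians were 0.00, 0.05, -0.03 and 0.00. The same 9, 2, 10 and 7 genes were counted with DESeq2 size factors, upper-quartile factors and library totals alone. In batch 2 the 2 genes above 0 were CHORDC1 (0.80) and STIP1 (0.03), and the other 8 lay between -0.42 and -0.06. Among the 6 libraries of batches 1 to 3, the NOD library of batch 3 was the highest for 6 genes (CHORDC1, HSP90AB1, HSPA1B, DNAJB1, STIP1 and HSPH1) and the NOD library of batch 1 for 3 (HSP90AA1, HSPA8 and DNAJA1). These 2 libraries together were the highest for 9 of the 10 genes and for 28.9% of all tested genes. The pair was singled out by these same values, and the rule that chose the genes used the same host comparison. The count is therefore a description and adds no support. HSPA1A, the exception, was highest in the B16A library of batch 2.

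**Figure D3:**
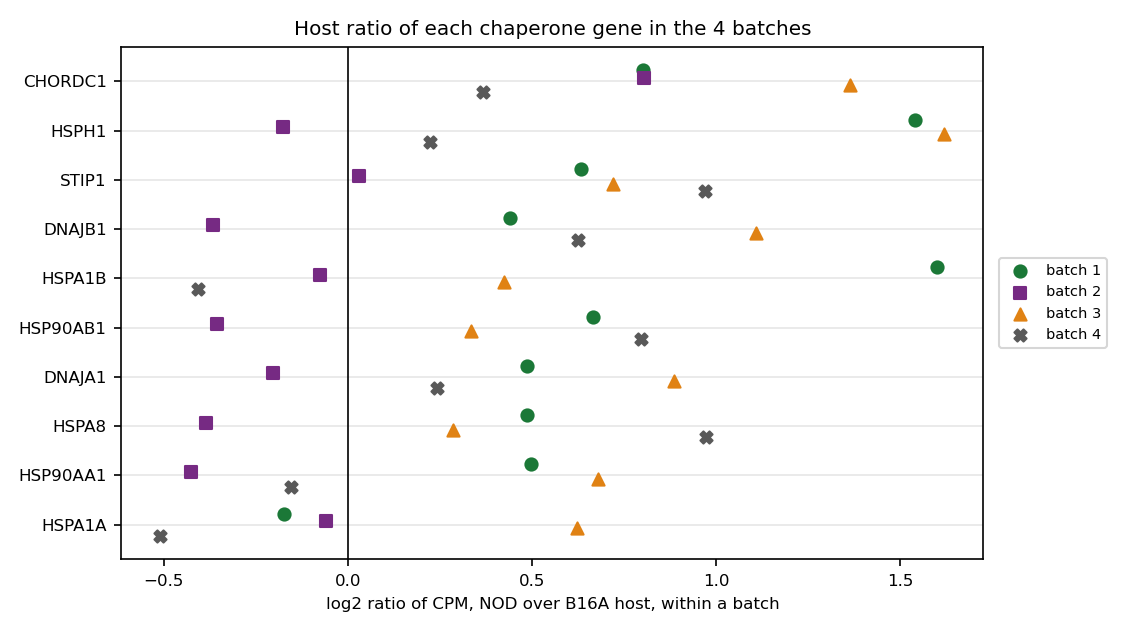
Host ratio (log2 of the NOD over the B16A level in CPM) within each batch for the 10 genes, ordered by their mean ratio (1 marker per library pair, without error bars; markers of a gene are offset vertically to keep them apart). Batch 2 lies at or below 0.03 for every gene but CHORDC1, which is at 0.80.

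Immediate early genes, which are induced within minutes by receptor signals or by handling of cells, also differed between hosts by batch. The median log2 ratio of their 13 tested members was 0.14, -0.62, 0.30 and 0.56 in batches 1 to 4. The sign of this median was that of the chaperone median in each batch, but this was not particular to the list. The medians of heat shock factors and other heat shock proteins (0.49, -0.20, 0.50 and 0.13) had the same signs. So did those of the CD4 T cell markers (0.04, -0.04, 0.40 and 0.39). The summed counts of the immediate early genes, scaled to total counts, went the other way in batches 1 and 3. They were 2226 and 717 CPM in NOD hosts there, against 2546 and 968 CPM in B16A hosts. In batches 2 and 4 the sums lay on the side of the median, at 1149 and 4965 CPM against 1737 and 3172 CPM. The mitochondrial share of counts was 9.46%, 6.21%, 12.1% and 3.13% in NOD hosts and 10.4%, 8.72%, 11.4% and 4.63% in B16A hosts. The predicted gene GM10800 alone took 10.8%, 17.1%, 11.1% and 0.00205% of counts in NOD hosts and 8.38%, 5.87%, 10.6% and 0.00469% in B16A hosts, so its hosts lay farthest apart in batch 2, and it was nearly absent from batch 4. The chaperone genes together took 0.161%, 0.106%, 0.169% and 0.246% of counts in NOD hosts and 0.108%, 0.120%, 0.112% and 0.177% in B16A hosts. The part of early gene induction or of RNA composition in the chaperone ratios was not tested.

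No tested gene was called different between hosts in the comparison of 4 with 4 libraries without a batch term. The edgeR quasi-likelihood test called 0 of 14607 tested genes (0%), with 34 (0.233%) at an unadjusted p under 0.05. DESeq2 without a batch term also called 0, with 105 (0.719%) at an unadjusted p under 0.05. Without that term the spread between batches counts as noise, so these fits could miss differences between hosts. With the batch number as a term edgeR also called 0, and 857 genes had an unadjusted p under 0.05. DESeq2 with the batch number as a term called 23 genes higher in NOD hosts, 0.157% of those tested, and 1 of the 10 chaperone genes, CHORDC1, was among them. Over batches 1 to 3 alone and with the batch term, edgeR called 25 higher of 15716 genes, 0.159%, again with CHORDC1 as the single chaperone gene. The rule that chose the genes used this comparison, so these counts add no support. The median of the 10 fitted log2 fold changes was 0.44, beside 0.03 over all tested genes. It fell to 0.03 without the NOD library of batch 4 and was 0.74 without the B16A library of batch 4; either choice leaves batch 4 in 1 host only.

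Both batch 4 libraries stood outside the range of batches 1 to 3 for 4 of the 10 genes, beside 72.3% of all tested genes, a description in which the host comparison played no part. They lay above all 6 libraries of batches 1 to 3 for all 4 of these genes, beside 31.8% of all tested genes, and below them for none (0 of the 10), beside 40.4%. DNAJA1 stood at 583 and 689 CPM in batch 4 against 79.7 to 184 CPM, a geometric mean level 5.35 times as high. HSP90AA1 stood at 141 and 157 CPM against 38.9 to 83.3 CPM (2.73 times), and HSP90AB1 at 844 and 1467 CPM against 389 to 646 CPM (2.21 times). HSPA1B exceeded the others by little, at 3.59 and 4.82 CPM against at most 3.11 CPM. DNAJB1 and HSPH1 had lower means in batch 4, 0.875 and 0.775 times those of batches 1 to 3, within the range of the other libraries. These calls between batches depend on the scaling: with upper-quartile factors HSP90AA1 and DNAJA1 still lay above, HSP90AB1 and HSPA1B did not, and DNAJB1 and HSPH1 lay below. A ratio of 2 genes in 1 library needs no scaling: DNAJA1 to DNAJB1 per kilobase was 0.335 to 0.516 in batches 1 to 3 and 2.20 (NOD) and 2.87 (B16A) in batch 4. Batch 4 is a single batch, so this difference has no replicate of its own and was not tested.

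The wider chaperone network was read from 6 further lists with 90 genes, of which 81 were tested. None of the 81 was called higher or lower between hosts (edgeR quasi-likelihood test, 0 with an unadjusted p under 0.05; 0 called by DESeq2 with or without the batch term). A higher value in NOD hosts was fitted for 54 of the 81, a larger share than the 54.1% among all tested genes. The NOD library was the higher one in all 4 batches for 12 of the 81, a larger share than the 7.43% among all tested genes. It was the lower one in all 4 for 6 of the 81, a share near the 6.85% among all tested genes. The lists were chosen with earlier results of these data known, so these shares are a description. Their median log2 fold change was 0.13, beside 0.03 over all tested genes. Relative to batches 1 to 3, 57 of the 81 lay above in both batch 4 libraries, beside 31.8% of all tested genes. Below them lay 10 of the 81, beside 40.4% of all tested genes.

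Among other HSP90 co-chaperones 0 of 18 tested genes passed in either direction, with a median log2 fold change of 0.08. FLCN, whose product (folliculin) is an HSP90 client loaded through its co-chaperone partners, averaged 41.0 ± 7.53 CPM with NOD hosts and 30.8 ± 4.87 CPM with B16A hosts (SD, n = 4; log2 fold change 0.41, SE 0.26) and was higher in NOD hosts in all 4 batches. NUDC, a co-chaperone first known from nuclear movement, stood at 7.98 ± 0.719 and 11.4 ± 3.04 CPM (-0.51, SE 0.31). Of 12 other HSP90 and HSP70 relatives 0 passed, with a median of 0.10. Those with the smallest p were HSPA4L, an HSP110 relative (0.30, SE 0.40), and HYOU1, the exchange factor of the endoplasmic reticulum (0.13, SE 0.26). Of 22 other J-proteins 0 passed and the median was -0.00. DNAJB5 had a log2 fold change of -0.64 (SE 0.47), and DNAJC13, an endosomal J-protein, stood at 86.4 ± 12.7 and 107 ± 12.6 CPM and was lower in the NOD library of all 4 batches (-0.31, SE 0.23).

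Among the 6 further chaperone lists the exchange factors and the chaperonin had the highest medians. Over all tested genes the median log2 fold change was 0.03, and 54.1% were positive. Of 11 exchange factors and the HSP70 partner HIP (ST13), 0 passed, 10 had a positive log2 fold change and the median was 0.33. SIL1, which serves HSP70 in the endoplasmic reticulum, stood at 14.0 ± 5.06 and 9.59 ± 1.59 CPM (0.55, SE 0.33) and was higher in NOD hosts in all 4 batches. BAG6, which handles misplaced membrane proteins, was lower in all 4 (-0.24, SE 0.34). Of the 13 genes of the chaperonin TRiC, which folds actin and tubulin, and of its helper prefoldin, 0 passed, 11 were positive and the median was 0.37. CCT5 (0.63, SE 0.98) and CCT4 (0.26, SE 0.42) had the smallest p. All 13 lay above the other libraries in batch 4, beside 31.8% of all tested genes. Of 5 tested heat shock factors and other heat shock proteins 0 passed, with a median of 0.18. HSPD1, the mitochondrial chaperonin HSP60, had log2 ratios of 0.72, 0.40, 0.91 and 0.81 in batches 1 to 4 (fitted 0.79, SE 0.97). That SE is from the fit without a batch term, so it includes the spread between batches and not only that of these ratios. HSF1, the heat shock transcription factor, stood at 48.1 ± 13.1 and 53.7 ± 16.01 CPM (-0.16, SE 0.31). HSPB1 was at 0 counts in all 8 libraries, and HSPB8, CRYAB, SERPINH1 and HSF4 were too low to test.

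The lists of HSP90 clients and of immediate early genes were read for comparison. Of 11 client genes 0 passed, 3 had a positive log2 fold change (54.1% of all tested genes did) and the median was -0.06. LCK averaged 1009 ± 1026 CPM for NOD and 626 ± 490.1 CPM for B16A hosts, with both batch 4 libraries above all others, and its log2 ratio in batches 1 to 4 was 0.43, 0.08, 0.60 and 0.90. PDPK1, a kinase that activates AKT, stood at 155 ± 7.08 and 179 ± 44.8 CPM (-0.21, SE 0.25). Of 13 immediate early genes 0 passed, with a median of 0.13; BTG2 (0.94, SE 1.37) and SOCS3 (-0.17, SE 0.25) had the smallest p.

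**Figure D4:**
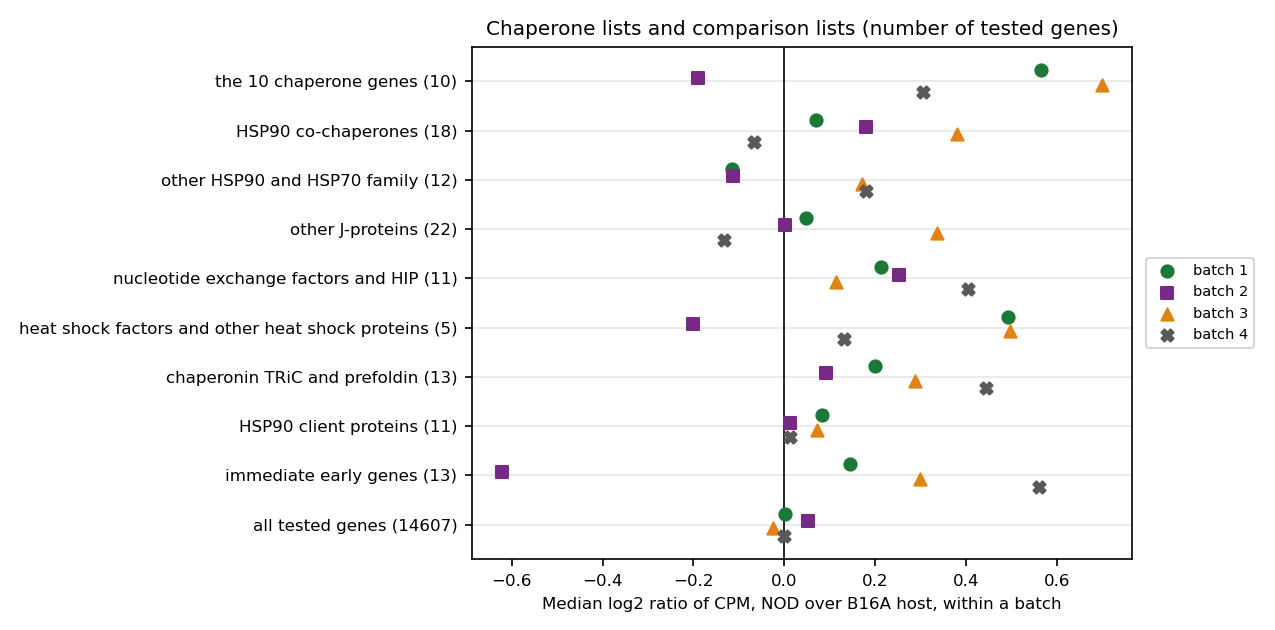
Median host ratio (log2, NOD over B16A) within each batch, for the 10 chaperone genes, 6 other chaperone lists, HSP90 clients, immediate early genes and all tested genes (1 marker per batch, offset vertically; the number of tested genes is in brackets). The 10 chaperone genes lie at 0.57, -0.19, 0.70 and 0.31 in batches 1 to 4, and all tested genes within 0.06 of 0.

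The genes most like CHORDC1 in host ratio were not chaperones. Likeness was the root-mean-square difference of the 4 within-batch log2 ratios, over 10724 genes with a mean of at least 4 CPM. The 5 nearest were RPL11, a ribosomal protein gene (0.060, with ratios of 0.70, 0.85, 1.32 and 0.36), COX7A2L, an assembly factor of respiratory supercomplexes (0.15), RPS12-PS19, a ribosomal pseudogene (0.20), SNHG5, a snoRNA host gene (0.21), and SNRNP27, a splicing factor gene (0.23). Among the chaperone genes DNAJA1 (0.58), STIP1 (0.59), HSPH1 (0.63) and DNAJB1 (0.64) came nearest to CHORDC1, and at least 502 of the 10724 genes were nearer than any of them. These distances rest on 4 pairs of libraries and describe them only.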

How the data were processed

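RNA of sorted 8F10 T cells was amplified (SeqPlex) and read as single 50-base reads, per the labels' protocols. The authors deposited 1 table of raw read counts per gene, not normalized. Per the submitters' processing notes, STAR, HTSeq, DESeq2 and the build mm10 were used; their versions, the annotation and any strand setting were not given in the sources used here. Samples were grouped by title, NOD or B16A host, 4 each. Genes were filtered with filterByExpr (14607 kept, 32018 removed) and TMM-scaled. edgeR 4.0.16 in R 4.3.3 (glmQLFit robust, glmQLFTest, Benjamini-Hochberg over all tested genes, threshold 0.05) compared the hosts without a batch term; DESeq2 1.42.0, a batch term, other scalings and filters, batch 4 left out and each library left out were alternatives. The fits were also run on simulated counts with known changes. Those counts held no batch effect, so that run does not show how the fits behave with a batch such as batch 4. Standard errors come from the F statistic of the fit without a batch term. They therefore include the spread between batches and are not errors of the within-batch ratios. Log2 CPM has a prior count of 2, and within-batch ratios are differences of it.

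The labels call the shared numbers batches, so they pair the samples. Deviations from the group means correlated across genes between same-batch libraries (r = 0.625, 0.702, 0.611 and 0.906 for batches 1 to 4). Pairs from different batches gave 0.465 to 0.741 among batches 1 to 3, where this check therefore does not set same-batch pairs apart, and -0.825 to -0.636 with batch 4; genes are not independent replicates. The members and lists were chosen with earlier results of these data known. Named were all 10 genes, per list the called genes or else the 2 with the smallest p (mean of 4 CPM or more), and the 5 genes most like CHORDC1; other genes were named after their values were seen. Positions and exon lengths (union of exons) are from GENCODE vM21 (GRCm38, which mm10 denotes), promoters from RefSeq (GRCm38.p6). Symbols are in capitals, as in the table.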

Additional observations from a re-analysis of the deposited data

Results flagged for a closer look

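In B16A hosts the batch 4 library lay far from the other 3 for 2 genes. HSP90AA1 stood at 157 CPM there against 40.1 to 58.9 CPM, and DNAJA1 at 583 CPM against 91.7 to 131 CPM. In both cases the gap to the nearest library, 0.839 and 0.920 of the range of the 4, exceeded the critical value of Dixon's test. The 10 genes in 2 hosts gave 20 such groups, and chance flags about 1 in 20. The NOD library of batch 4 was also the highest of its host for both genes, and both batch 4 libraries stood apart in depth and composition; the part of that in these values was not tested.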

How the results depend on the processing

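The count of genes called different between hosts was 0 without a batch term and 0 in edgeR with the batch pairing as a block. It was 27 in DESeq2 with that block and 32 in edgeR with batch 4 left out and the block. In the other settings it stayed at 0, also when each library was left out in turn. The cause was not tested. The block changed no call for the 81 other chaperone genes, which were called 0 times in all 17 alternatives (at an unadjusted p under 0.05 with the block, 11 in edgeR, 8 in DESeq2 and 12 in edgeR with batch 4 left out, or 13.6%, 9.88% and 14.8% of the 81, beside 5.87%, 5.85% and 8.37% of all tested genes). The median log2 fold change of the 10 genes was 0.35 to 0.47 in the 9 settings that left out no single library, and 0.031 (without NOD replicate 4) to 0.74 (without B16A replicate 4) when 1 library was left out. CHORDC1, HSPA8, DNAJB1, STIP1 and HSPH1 stayed positive in all 17 alternatives but not in size: HSPA8 came to 0.083 and STIP1 to 0.37 without NOD replicate 4, and DNAJB1 to 0.29 and HSPH1 to 0.56 without NOD replicate 3. The other 5 genes changed sign in at least 1, DNAJA1 from -0.68 to 1.46 without NOD or B16A replicate 4, which leaves batch 4 in 1 host only. In the 9 settings that left out no single library, only HSPA1A changed sign (-0.13 to 0.13). There DNAJA1 ran from 0.28 to 0.47, HSP90AB1 from 0.22 to 0.48, HSP90AA1 from 0.045 to 0.31 and HSPA1B from 0.069 to 0.64. The count of genes outside the range in batch 4 was 3 or 4 in its 10 alternatives, with different genes under upper-quartile factors. HSPA1A and HSPA1B had the fewest reads of the 10 genes, 4 to 115 per library.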

Other observations

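Outside the 10 genes, 54 tested genes held 3 alternating heat shock element units in a RefSeq promoter window. Their median log2 fold change, NOD minus B16A host, was 0.03, beside 0.03 over all tested genes, and 28 were positive (51.9%, against 54.1% of all tested genes). Within batches 1 to 4 the median log2 ratio of these genes was 0.07, 0.09, -0.07 and 0.00. FKBP5, an HSP90 co-chaperone induced by glucocorticoids, stood at 39.6, 52.0, 48.2 and 57.5 CPM in NOD hosts and at 30.6, 43.8, 24.9 and 113 CPM in B16A hosts, so the host order turned in batch 4; it was named after its values were seen. PTGES3, the HSP90 co-chaperone p23, ran from 11.7 to 22.7 CPM in the 6 libraries of batches 1 to 3 and reached 794 and 813 CPM in batch 4. It was likewise named after its values were seen.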
